A study of Homo sapiens with 6 samples.

Results

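The MCM (minichromosome maintenance) genes and the gene of the MCM-binding protein were followed in resting human fibroblasts after knockdown of MCM7. The members were MCM2, MCM3, MCM4, MCM5, MCM6, MCM7, MCM8, MCM9, MCM10 and MCMBP, taken by gene symbol, and each of the 10 had exactly 1 row among the 58302 genes of the count table. All 10 passed the filter on low counts, which left 14667 tested genes. RNA was sequenced from 6 samples of 1BR3, a line of skin fibroblasts immortalised with the telomerase subunit hTert. Of these, 3 were transfected with non-targeting control siRNA and 3 with a pool of 4 siRNAs against MCM7. Cells of both groups received the siRNA while they were still cycling and were afterwards deprived of serum, which stops division and lets fibroblasts build a primary cilium. Only 1 cell line was used, the pool was not split into its siRNAs, and RNA says nothing of how much MCM protein was left. Nothing in the labels says that the replicates were separate cultures, and the spread on which every p-value rests may therefore be technical.

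MCM2 to MCM7 are related ATPases that assemble into a ring around DNA. The ring is loaded at replication origins in G1 by ORC, CDC6 and CDT1, a step called licensing, and together with CDC45 and GINS it becomes the helicase that unwinds DNA in S phase. MCM8 and MCM9 form a separate complex that acts in homologous recombination, MCM10 is a firing factor of unrelated sequence that helps to switch the helicase on, and MCMBP binds MCM subunits outside and on chromatin. The MCM2 to MCM7 genes are classic targets of the E2F transcription factors, which RB family proteins hold in check in resting cells.

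Promoter sequences are shown first for the targeted gene and for 3 further ring subunits, because they carry letters of the kind that E2F factors bind. The sequences come from RefSeq (GRCh38.p14), run 5′ to 3′ from 200 bases before to 20 bases after a RefSeq start site, and have matches to the searched letters in capitals.
MCM7, chr7:100101378-100101597, minus strand: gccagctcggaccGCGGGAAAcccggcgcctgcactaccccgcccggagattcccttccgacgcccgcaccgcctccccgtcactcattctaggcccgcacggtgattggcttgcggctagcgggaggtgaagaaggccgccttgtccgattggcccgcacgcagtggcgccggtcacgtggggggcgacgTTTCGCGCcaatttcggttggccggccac
MCM3, chr6:52284723-52284942, minus strand: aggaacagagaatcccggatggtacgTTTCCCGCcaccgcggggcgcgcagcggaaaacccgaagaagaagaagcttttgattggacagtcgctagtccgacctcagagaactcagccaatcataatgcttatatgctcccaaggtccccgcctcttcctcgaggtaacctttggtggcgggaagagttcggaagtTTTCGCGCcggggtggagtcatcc
MCM2, chr3:127598211-127598430, plus strand: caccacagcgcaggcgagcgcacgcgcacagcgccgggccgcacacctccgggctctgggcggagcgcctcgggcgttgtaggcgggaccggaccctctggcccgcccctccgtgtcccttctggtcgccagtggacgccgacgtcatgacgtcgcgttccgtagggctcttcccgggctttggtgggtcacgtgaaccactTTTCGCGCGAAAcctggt
MCM6, chr2:135876424-135876643, minus strand: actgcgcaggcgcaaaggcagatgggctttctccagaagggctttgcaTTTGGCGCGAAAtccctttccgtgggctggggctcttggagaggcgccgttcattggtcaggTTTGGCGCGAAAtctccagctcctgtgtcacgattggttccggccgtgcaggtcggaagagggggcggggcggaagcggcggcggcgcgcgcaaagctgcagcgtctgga
The search covered TTTCCCGC, TTTCGCGC, TTTGCCGC and TTTGGCGC on both strands, in windows from 250 bases before to 50 bases after each start. The table used held 11 windows for 8 members, and MCM4 and MCM5 were not analysed here. At least 1 match was found in 6 of these 8 members, namely MCM2, MCM3, MCM6, MCM7, MCM8 and MCMBP, and in 6 of the 11 windows, while 3.31% of all 35116 windows held a match. MCM6 had 4 matches, which formed 2 overlapping pairs that began at -152 and -90 from the start. MCM7 had 2 matches, at -187 and -9, in only 1 of its 3 windows. MCM3 likewise had 2, at -174 and -4, and the 2 matches of MCM2 overlapped each other downstream of the start. MCM9 and MCM10 had none of these letters. The CCAAT box (CCAAT on either strand) occurred in 6 of the 8 members and in 8 of the 11 windows, against 34.6% of all windows. The letters TTTGAA, the core of the cell cycle homology region, occurred in none of the 11 windows and in 15.2% of all. A match is a description of letters and not a measured binding site.

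Total counts ranged from 18669386 to 21380345 in the control group and from 13721281 to 23969024 in the MCM7 siRNA group, whose replicate 1 was the shallowest. Libraries were compared pairwise by a chi-square of their counts, divided by its degrees of freedom. Libraries of the same group lay at 2.75 to 4.10 from each other in all pairs but MCM7 siRNA replicates 2 and 3, which lay at 8.89. Pairs of a control and a knockdown library lay at 7.73 to 16.1. The measure grows with depth, and the between-group pairs at 7.73 to 9.03 all included the shallow MCM7 siRNA replicate 1. Pairs of a control library with MCM7 siRNA replicate 2 or 3 lay at 11.2 to 16.1, all above 8.89. The fibroblast label fitted its markers, since all 10 were detected, with mean levels from 197 CPM (FAP) to 30173 CPM (COL1A1). CPM here stands for counts scaled to a common library total, after adjustment by library size and TMM factors. Of 12 markers of epithelial, endothelial, blood and pigment cells, 11 were too low to be tested, KRT5 and TYR were at 0 in all 6 libraries, and the highest count of any of them in a library was 15 (PTPRC). Across all tested genes, 1909 passed an adjusted p under 0.05 in edgeR, 930 higher and 979 lower, and the median log2 fold change was -0.0028.

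MCM7, the target, fell to 11.3% of its control level (95% interval 9.77% to 13.0%). The gene lies on chromosome 7 (GRCh38, 100092233 to 100101940, minus strand) and its canonical transcript has 15 exons. Its level was 27.3, 29.6 and 31.3 CPM in the control libraries and 3.51, 3.33 and 3.18 CPM in the MCM7 siRNA libraries. These levels rest on 509, 594 and 662 reads against 48, 68 and 76 reads. The groups were far apart, and each knockdown library kept between 10.8% and 11.9% of the control mean. The log2 fold change was -3.15 ± 0.10 (SE, n = 3 per group; edgeR adjusted p = 8.31e-21), and among all tested genes only PRX had a lower one. AP4M1, whose 5′ end overlaps that of MCM7 on the opposite strand, was read 152, 165 and 167 times in the control libraries and 121, 160 and 188 times after knockdown. Reads were counted by strand according to the study's methods, so these are not MCM7 reads.

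Of the other 9 members, MCM5, MCM3 and MCM2 fell and none rose. With MCM7, 4 of 10 members were thus called lower at an adjusted p under 0.05, where 6.67% of all tested genes were lower and 6.34% higher. The 4 include the target, and in 14 of 15 alternative settings the count was 3 or 2, with 2 without control replicate 3. Groups without overlap were seen for 5 members, all lower, against 15.0% of tested genes with the same pattern. In DESeq2 the lower calls were 3 of the 9 members that received an adjusted p, against 5.29% of genes. The median log2 fold change of the 9 members other than MCM7 was -0.22, and 8 of 10 members were below 0, as were 50.7% of all tested genes. Bulk RNA cannot tell fewer cells that express a gene from less of its RNA per cell.

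**Figure D1:**
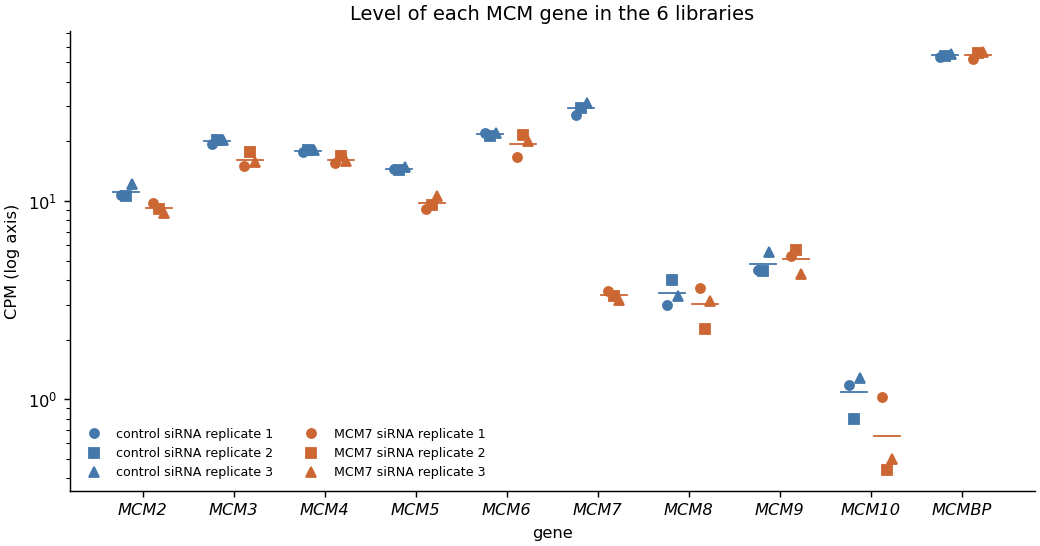
Level of each MCM gene in CPM on a log axis, with 1 point per library (symbols mark the replicate number, which the labels do not tie across groups) and a line at each group mean. MCM7 drops from 29.4 to 3.34 CPM, MCM5 from 14.6 to 9.79 CPM without overlap, and the groups of MCMBP lie on each other near 54 CPM.

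MCM5 changed most among the ring subunits that were not targeted. Its gene lies on chromosome 22 (35400134 to 35425431, plus strand). It was read 272, 288 and 314 times in control libraries and 125, 196 and 254 times after knockdown, which gave 14.6, 14.4 and 14.8 CPM against 9.14, 9.60 and 10.6 CPM. The control libraries had an SD of 0.237 CPM (n = 3), and every knockdown library lay below all of them. The log2 fold change was -0.56 ± 0.09 (SE; 95% interval -0.75 to -0.38; edgeR adjusted p = 4.70e-05), that is 67.7% of control. DESeq2 gave an adjusted p of 7.91e-05. Only 1.78% of tested genes had a lower log2 fold change.

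MCM3, on chromosome 6 (52264014 to 52284881, minus strand), fell by a smaller amount. Its level was 19.3, 20.3 and 20.4 CPM in control libraries and 15.1, 17.7 and 15.8 CPM after knockdown, so the groups did not overlap. The log2 fold change was -0.30 ± 0.08 (SE; 95% interval -0.46 to -0.14), or 81.3% of control. The adjusted p was 0.0104 in edgeR and 0.0350 in DESeq2. It rose to 0.0581 without control replicate 3 and to 0.0640 without MCM7 siRNA replicate 1.

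MCM2, the subunit that also carries histones H3 and H4 at the fork, was at the edge of the call. Its gene lies on chromosome 3 (127598410 to 127622436, plus strand). Levels were 10.7, 10.6 and 12.2 CPM in control libraries and 9.73, 9.16 and 8.70 CPM after knockdown, which do not overlap. This was a log2 fold change of -0.29 ± 0.10 (SE; 95% interval -0.49 to -0.087; edgeR adjusted p = 0.0497), or 81.8% of control. DESeq2 gave 0.161, and the call held in only 1 of 15 alternative settings, so MCM2 was close to the threshold rather than clearly past it.

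MCM4 and MCM6 completed the ring and did not pass the test. MCM4, on chromosome 8 (47960185 to 47978160, plus strand), had 17.6, 18.2 and 18.1 CPM in control libraries and 15.5, 16.95 and 15.9 CPM after knockdown. The groups did not overlap, but the log2 fold change of -0.15 ± 0.08 (SE; 95% interval -0.31 to 0.0083) had an edgeR adjusted p of 0.221. MCM6, on chromosome 2 (135839626 to 135876443, minus strand), had 22.1, 21.3 and 22.1 CPM in control libraries and 16.6, 21.6 and 20.2 CPM after knockdown. Replicate 1 of the MCM7 siRNA group was low and replicate 2 lay within the control range. The log2 fold change was -0.15 ± 0.08 (SE; 95% interval -0.32 to 0.017; edgeR adjusted p = 0.251). For both genes the interval still allows a loss of about the size of that of MCM3, so no difference from MCM3 is shown.

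**Figure D2:**
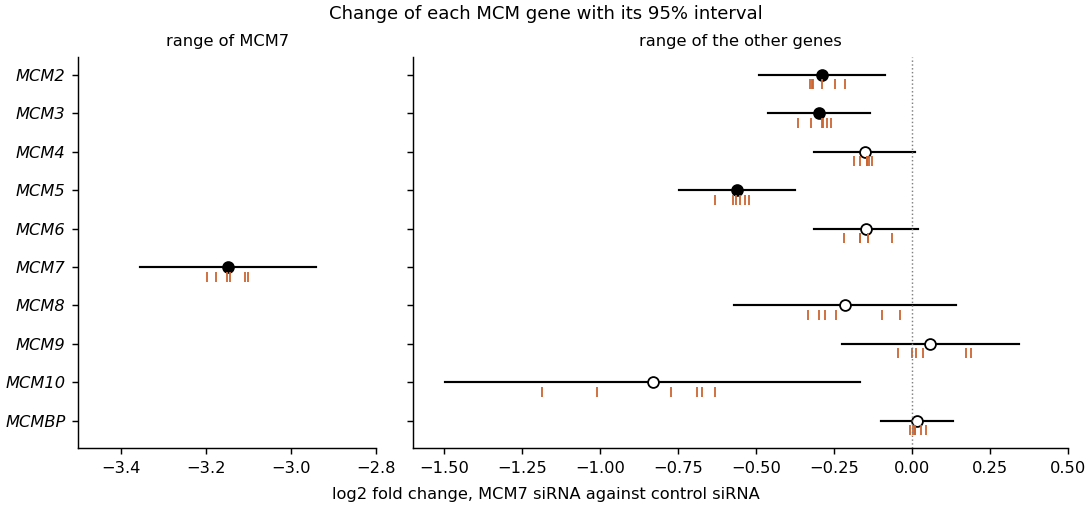
Log2 fold change of each MCM gene with its 95% interval from edgeR (3 libraries per group), in separate ranges for MCM7 and for the other genes. Filled points passed an adjusted p of 0.05 and orange ticks give the value with each of the 6 libraries left out: MCM7, MCM5, MCM3 and MCM2 are filled, and the ticks of MCM9 and MCMBP fall on both sides of 0.

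MCM5 was set against each of the other untargeted subunits by their ratio inside every library, which no scaling of libraries can shift. MCM5 was chosen for this with earlier results of these data known, so lower ratios partly restate its larger fall. The log2 ratio of MCM5 to MCM6 counts was -0.60, -0.57 and -0.58 in control libraries and -0.86, -1.17 and -0.93 after knockdown. The ratio to MCM4 was -0.27, -0.34 and -0.29 against -0.76, -0.82 and -0.58. The difference, knockdown minus control, was -0.40 against MCM6 and -0.42 against MCM4, with no overlap between groups. Against MCM3 the difference was -0.27, again with no overlap. Against MCM2 it was -0.30, and the groups overlapped because MCM7 siRNA replicate 3 (0.29) lay above control replicate 3 (0.28). The exact permutation test, two-sided, gave p = 0.1 for MCM3, MCM4 and MCM6, which is the smallest p that 3 against 3 samples can give, and p = 0.2 for MCM2. Adjusted over the 4 comparisons, these were 0.133 and 0.2, so no ratio passed a threshold that this design could not reach.

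**Figure D3:**
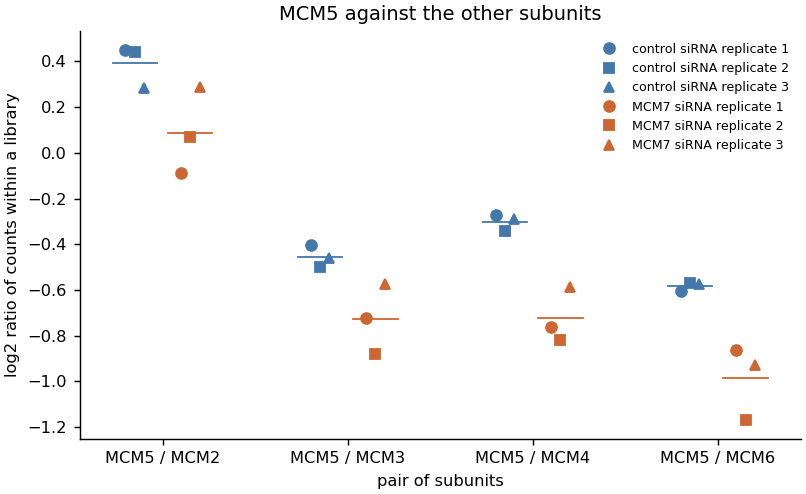
Log2 ratio of MCM5 counts to the counts of MCM2, MCM3, MCM4 and MCM6 within each library, with lines at the group means (n = 3). The knockdown libraries lie below all control libraries for MCM3, MCM4 and MCM6, and overlap with them for MCM2.

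MCMBP and the MCM8 and MCM9 pair showed no change that passed the test. MCMBP, on chromosome 10 (119829404 to 119892556, minus strand), had 53.5, 54.1 and 55.3 CPM in control libraries and 52.1, 55.6 and 56.4 CPM after knockdown. The log2 fold change was 0.01 ± 0.06 (SE; edgeR adjusted p = 0.914), and its 95% interval of -0.10 to 0.13 corresponds to 93.2% to 109% of control. It was the most precisely measured member, with between 712 and 1348 reads per library. MCM8, on chromosome 20 (5950652 to 5998977, plus strand), ranged from 3.00 to 3.99 CPM in control libraries and from 2.25 to 3.66 CPM after knockdown, with a log2 fold change of -0.22 ± 0.17 (SE; edgeR adjusted p = 0.471). MCM9, on chromosome 6 (118813442 to 118935162, minus strand), ranged from 4.44 to 5.53 CPM and from 4.31 to 5.68 CPM, with a log2 fold change of 0.06 ± 0.14 (SE; edgeR adjusted p = 0.843). The groups of both genes overlapped. The interval of MCM8, -0.57 to 0.14, leaves room for a loss as large as that of MCM3 (-0.30). The interval of MCM9, -0.23 to 0.34, leaves room only for a rise of that size.

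MCM10, on chromosome 10 (13161558 to 13211110, plus strand), had the lowest level and the largest estimated loss outside the target. It was read 22, 16 and 27 times in control libraries and 14, 9 and 12 times after knockdown. The 9 reads alone have an exact Poisson 95% interval of 4.12 to 17.1, which covers counting error only. In CPM these were 1.18, 0.798 and 1.28 against 1.02, 0.441 and 0.502, so that knockdown replicate 1 lay inside the control range. It had a log2 fold change of -0.83 ± 0.33 (SE; 95% interval -1.50 to -0.17), with an unadjusted p of 0.0157 and an edgeR adjusted p of 0.0884. The value depended on which library was left out: it was -1.19 (adjusted p = 0.0302) without MCM7 siRNA replicate 1, but -0.63 (adjusted p = 0.276) without replicate 2 of that group, -0.67 (0.219) without its replicate 3 and -0.69 (0.301) without control replicate 3, all in edgeR. DESeq2 gave no adjusted p at this depth.

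The order of the genes by RNA level was compared per length, with the deposited RPKM (reads per kilobase of gene and per fixed number of assigned reads). In control libraries MCMBP was highest (9.004 RPKM), followed by MCM7 (6.67), MCM3 (5.45), MCM6 (5.28), MCM4 (2.62), MCM2 (2.26), MCM5 (1.98), MCM8 (0.444), MCM9 (0.384) and MCM10 (0.198). Only the neighbours MCM3 and MCM6, and MCM8 and MCM9, overlapped over the 3 libraries. In RPKM, MCMBP stood at percentile 75.7 of all tested genes and MCM10 at percentile 5.39. After knockdown MCM7 was at 0.764 RPKM, below MCM5 (1.34) and above MCM9 (0.408), so it went from second place to the seventh. The other ring subunits kept their order in RPKM except that MCM6 (4.75) and MCM3 (4.45) exchanged places with overlapping ranges, as did MCM9 and MCM8 (0.393). MCM7 made up 27.5% ± 1.00 (SD, n = 3) of the summed RPKM of MCM2 to MCM7 in control libraries and 4.93% ± 0.521 after knockdown. The sum of MCM2 to MCM6 was 17.6 ± 0.311 RPKM against 14.8 ± 1.19 RPKM (SD, n = 3). Within that sum the share of MCM5 was 11.2% ± 0.147 against 9.07% ± 0.741, and that of MCM4 14.9% ± 0.294 against 16.1% ± 0.494.

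The order, the sums and the shares depend in part on the gene length behind the RPKM. That length was 7338 bases for MCM5, 12496 for MCM9 and 4386 for MCM7, whereas their canonical GENCODE transcripts measure 3458, 5219 and 2467 bases. With CPM per kilobase of canonical transcript, a scale added after the data had been seen, MCM5 (4.22) stood above MCM2 (3.24) in control libraries and MCM9 (0.924) above MCM8 (0.458), each without overlap. On this scale MCM7 (11.9) was close to MCMBP (12.9) before knockdown. After knockdown it was at 1.35, again in the seventh place. The 2 exchanges seen in RPKM did not occur on this scale. MCM3 stood above MCM6 in control libraries (6.52 and 5.82) and after knockdown (5.28 and 5.19, with overlapping ranges). MCM9 also stayed above MCM8 after knockdown (0.974 and 0.403).

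**Figure D4:**
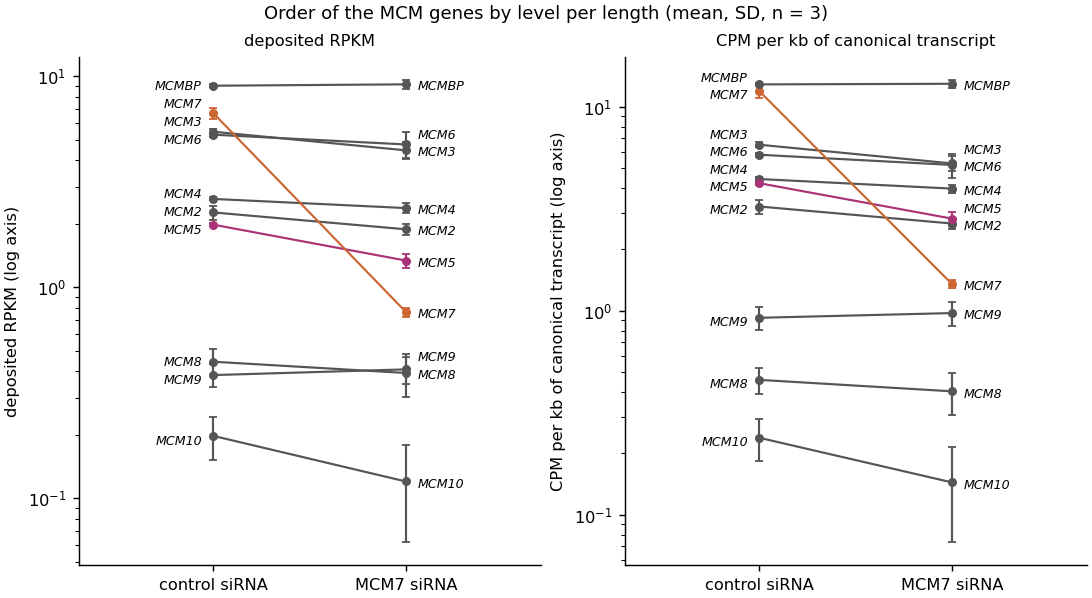
Level per length of the 10 genes in the control and MCM7 siRNA groups (mean, bars SD, n = 3, log axes), as deposited RPKM on the left and as CPM per kilobase of canonical transcript on the right. MCM7 (orange) falls from second to seventh place on both scales, while MCM5 (purple) is below MCM2 on the left and above it on the right in the control group.

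Genes that work with the MCM ring were examined in 4 lists, beside the 6.34% of all tested genes that were called higher and the 6.67% called lower. Of 29 genes of origin licensing and helicase activation, 1 rose, none fell and 28 did not pass the test, and their median log2 fold change was -0.03. The gene that rose was ORC1, the subunit of the origin recognition complex that is most regulated over the cell cycle. It was read 6 times in each control library and 11, 13 and 15 times after knockdown, a 2.22-fold difference (log2 1.15 ± 0.39, SE; edgeR adjusted p = 0.0485) for which DESeq2 gave no adjusted p. RECQL4, a helicase of the RecQ family that takes part in origin firing, had the next smallest p (log2 fold change -0.55 ± 0.19, SE; edgeR adjusted p = 0.0565).

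Of the 28 E2F and RB regulators 26 were tested, of which 3 rose, 1 fell and 22 did not pass, with a median log2 fold change of 0.03. These few calls are near the shares over all tested genes (6.34% higher, 6.67% lower) and say nothing particular of the list. RB1, the retinoblastoma protein that binds activating E2F factors, rose to 50.4 ± 1.36 CPM against 41.5 ± 2.67 CPM in control libraries (SD, n = 3; adjusted p = 0.0018 in edgeR). CDK6 and CCND3, a kinase and a cyclin that phosphorylate RB, rose by log2 0.22 ± 0.06 and 0.26 ± 0.08 (SE; edgeR adjusted p = 0.0182 and 0.0277). CCND3 was not called in DESeq2 (adjusted p = 0.0784). TFDP2, a DNA-binding partner of E2F factors, fell by 0.30 ± 0.06 on the log2 scale (SE; edgeR adjusted p = 0.0009). E2F2 and E2F8 were too low to be tested.

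Of the 16 genes of MCM unloading and histone handling, all tested, 1 rose, none fell and 15 did not pass, and their median log2 fold change was -0.04. This share is near the 6.34% of all tested genes called higher. The gene was NASP, a chaperone that keeps a reserve of histones H3 and H4, which rose to 28.3 ± 0.543 CPM against 23.3 ± 1.02 CPM in control libraries (SD, n = 3; adjusted p = 0.0058 in edgeR).

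Of 15 proliferation markers, 4 rose, 1 fell and 10 did not pass, where 6.34% of all tested genes were called higher and 6.67% lower. Their median log2 fold change was 0.15. TOP2A, a topoisomerase, HMMR and CENPF, proteins of the spindle and the kinetochore, and CDK1, the mitotic kinase, rose by log2 0.53 ± 0.07, 0.92 ± 0.17, 0.46 ± 0.10 and 0.59 ± 0.15 (SE). Other genes of mitosis in the list did not pass. Their log2 fold changes were 0.07 (CCNB1), 0.08 (AURKA), 0.15 (PLK1 and UBE2C), 0.27 (BUB1), -0.15 (CCNA2) and -0.25 (BIRC5). The remaining markers that did not pass were MKI67 (-0.10), TYMS (0.15) and RRM2. RRM2 had -0.46 ± 0.20 (SE) with an edgeR adjusted p of 0.139, the largest fall among the markers not called. TK1, an enzyme of nucleotide supply whose transcript rises with S phase, fell by 0.48 ± 0.16 on the log2 scale (SE; edgeR adjusted p = 0.0409), and DESeq2 did not call it (adjusted p = 0.145). The summed level of the 15 markers ran from 91.1 to 95.7 CPM in control libraries and from 106 to 116 CPM after knockdown, and TOP2A alone went from 22.5 to 32.4 CPM in the group means. The summed level of the 9 members other than MCM7 went the other way. It ran from 146 to 153 CPM in control libraries and from 128 to 139 CPM after knockdown. MCMBP made up 54.3 and 54.7 CPM of it in the group means. The licensing list also summed higher without overlap (200.8 to 207.5 against 208.0 to 215.5 CPM), as did the E2F and RB list (935.8 to 973.9 against 986.4 to 994.2 CPM). The medians of these 2 lists were -0.03 and 0.03, and such sums follow the most abundant genes. The unloading list overlapped. The part that the cell cycle state of the cultures has in the MCM levels was not tested.

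Among the 10 fibroblast markers, COL3A1, PDGFRA, LUM and PDGFRB rose and FAP and VIM fell, by at most 0.36 on the log2 scale, where 6.34% of all tested genes were called higher and 6.67% lower. Their summed level was 68592 to 74336 CPM in control libraries and 72569 to 75084 CPM after knockdown, ranges that overlap.

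**Figure D5:**
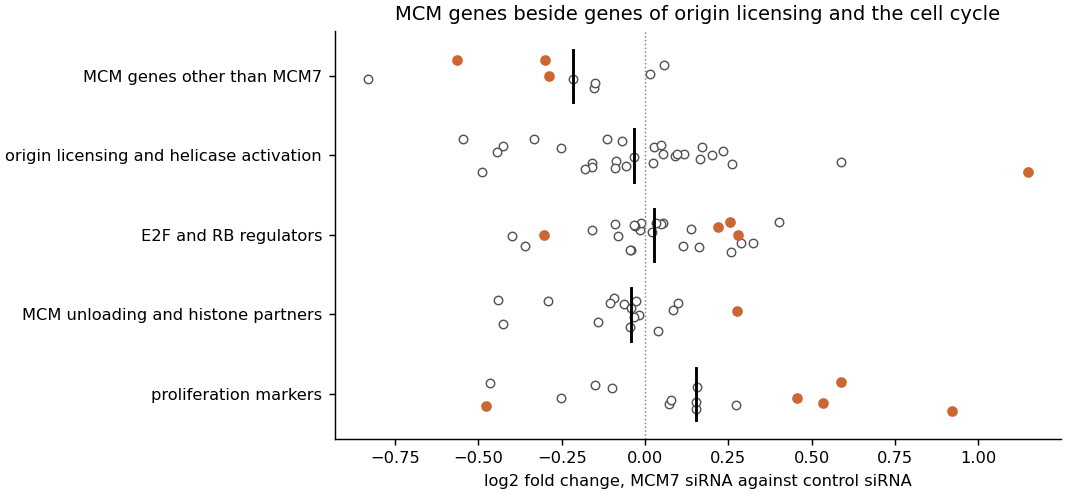
Log2 fold change of the MCM genes other than MCM7 and of 4 lists of replication and cell cycle genes. Each point is a tested gene, filled orange where the edgeR adjusted p was under 0.05, and the black line is the median: -0.22 for the MCM genes, between -0.04 and 0.03 for licensing, E2F and unloading genes, and 0.15 for proliferation markers.

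The genes whose pattern over the 6 libraries lay nearest to that of the 2 members with the clearest change were picked by the root mean square distance between centred log2(CPM + 0.5) values. For MCM7 the nearest was PRX, periaxin, at a distance of 0.221, with 7.35, 5.68 and 6.56 CPM in control libraries and 0.658, 0.637 and 0.627 CPM after knockdown. LINC01128 (0.657) and ZNF468 (0.806) followed at much larger distances. MCM5 had closer neighbours, namely UCK2, a uridine-cytidine kinase, at 0.0394, LBH at 0.0418 and MPV17L2 at 0.0473. UCK2 had 29.0, 29.8 and 29.5 CPM in control libraries and 18.4, 19.2 and 20.2 CPM after knockdown. The distance mostly reflects a difference between groups of like size, and with 6 libraries in 2 groups it carries no further information on shared behaviour.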

How the data were processed

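Poly(A)+ RNA of the 6 samples had been made into stranded libraries. Per the submitters' processing notes, reads were extracted with bcl2fastq 1.8.4, mapped to GRCh38 with TopHat2 2.1.0 and counted with featureCounts 1.5.0, by strand and from unique mappings according to the study's methods. Reads shared with near-identical copies are therefore lost. The authors deposited raw counts per gene, RPM values (counts scaled to the same total of assigned reads) and RPKM values (RPM divided by 1 length per gene).

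The main test on the counts was edgeR 4.0.16, quasi-likelihood (filterByExpr, TMM factors, robust dispersions, two-sided, Benjamini-Hochberg adjustment over 14667 genes, threshold 0.05) under R 4.3.3. Intervals are 95%. DESeq2 1.42.0 and limma 3.58.1 on log2(RPM + 0.5) served as alternatives, as did other scalings and filters, a replicate block, thinning and leaving out each library. RPKM served only for the order of levels and for the sums and shares of the ring subunits. Depth was 13721281 to 23969024 counts, so genes under about 1 CPM rest on few reads. Coordinates are those of GENCODE 44.

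The members, the gene lists and the ratios of MCM5 were chosen with earlier results of these data known. Named were all members, the called genes of each list (up to 6 by p, otherwise the 2 with the smallest p) and the 3 genes nearest to MCM7 and MCM5. AP4M1, ASF1A, MIR25, MIR93, MIR106B, RECQL4, COL1A1, KRT5, TYR, E2F2 and E2F8 were named in addition, after their values were seen. The same holds for CCNB1, AURKA, PLK1, UBE2C, BUB1, CCNA2, BIRC5, MKI67, TYMS and RRM2.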

Additional observations from a re-analysis of the deposited data

How the results depend on the processing

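The fall of MCM7 (log2 fold change -3.25 to -2.95) and that of MCM5 (-0.63 to -0.53) passed the threshold in all 15 alternatives, and MCM4, MCM6 and MCM8 stayed outside it in all 15. MCM3 lost its call without control replicate 3, without MCM7 siRNA replicate 1 and at an adjusted p under 0.01. MCM2 kept its call only with a filter of at least 1 CPM in 3 libraries. At an adjusted p under 0.01, 1043 genes and 2 members were called. Leaving out 1 library at a time gave 1186 to 2367 genes and 2 to 3 members, the lowest for both without control replicate 3. The labels do not say whether samples of the same replicate number were paired. Deviations of same-numbered samples correlated at -0.012, -0.026 and -0.017, which with so few libraries cannot exclude pairing. With the replicate block 2007 genes and 3 members were called, and the edgeR adjusted p of MCM2 was 0.0519. The sign of members with values near 0 was not stable: MCM9 had -0.0011 without control replicate 2 and -0.0456 without MCM7 siRNA replicate 2, with a range of -0.0456 to 0.187 over the left-out libraries. MCMBP had -0.0108 with thinned counts and -0.0089 without MCM7 siRNA replicate 3, with a range of -0.0089 to 0.0437. The cause was not tested. MCM10 was called only without MCM7 siRNA replicate 1, and its log2 fold change ranged from -1.19 to -0.47 over the alternatives; DESeq2 gave it no adjusted p. Calls of genes with few reads are limited by depth.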

Other observations

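The MCM7 gene hosts 3 microRNA genes on its own strand, MIR25, MIR93 and MIR106B. In these poly(A)+ libraries MIR93 and MIR106B had 0 reads in all 6 libraries and MIR25 had 0 or 1, so these libraries give no measure of the microRNAs. MCM9 overlaps ASF1A, a histone chaperone gene on the opposite strand, which was read 187, 208 and 219 times in control libraries and 130, 225 and 229 times after knockdown.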
